A study of Mus musculus with 9 samples.

Results

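Polycomb repressive complex 2 (PRC2) was followed at the transcript level in 3 BCR/ABLp185+ mouse cell lines. Its 10 genes were taken by their known part in the complex, by a rule that uses no measured value, although earlier results of these data were known. They are the catalytic subunits Ezh1 and Ezh2, the core subunits Suz12 and Eed, the histone-binding subunits Rbbp4 and Rbbp7, and the accessory subunits Jarid2, Mtf2, Phf1 and Phf19. All 10 were among the 50686 genes counted, and all 10 passed the filter on low counts that left 13852 genes to be tested. The lines came from bone marrow of mice on a C57BL/6N background that were wild-type (wt), lacked Stat5a (Stat5a-/-) or lacked Stat5b (Stat5b-/-). All 3 lines carry the BCR/ABLp185 oncogene, a fusion kinase brought in with a retrovirus, and all 3 grew as established cultures without any further treatment. Each genotype was represented by 1 line in 3 technical replicates, 9 libraries in all, so genotype and line cannot be told apart and every p-value below measures the spread between technical replicates only.

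PRC2 adds methyl groups to lysine 27 of histone H3, a mark of silenced genes. EZH2 or EZH1 carries the methyltransferase activity, which needs EED and SUZ12, and EED also binds the finished mark. The accessory subunits steer the complex to chromatin. PHF1, MTF2 and PHF19 are the mammalian Polycomb-like proteins and define 1 form of PRC2, whereas JARID2 belongs to the other form. In B-cell development EZH2 is high in dividing precursors and falls as cells come to rest, while EZH1 is better known from resting cells.

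Libraries held 11948136 to 19016396 counted reads, and a member had 311 to 16376 reads in a library. The targeted genes followed the labels only in part. Stat5a stood at 43.2 ± 6.35 normalized CPM (CPM, counts scaled to a common library total by TMM, SD, n = 3) in wt and 12.4 ± 1.02 in Stat5a-/-, and Stat5b fell from 106 ± 1.96 in wt to 63.4 ± 7.72 in Stat5b-/-, so reads of the deleted gene remained. The other Stat5 gene was higher than in wt, with Stat5a at 83.7 ± 10.2 in Stat5b-/- (adjusted p = 5.95e-05 in edgeR). Stat5b stood at 142 ± 15.9 in Stat5a-/- (adjusted p = 0.00942 in edgeR). Markers of the B lineage summed to 4720 to 5020 CPM in wt libraries, 6450 to 7150 in Stat5a-/- and 5740 to 6590 in Stat5b-/-. Of these 10 genes, 6 rose and 2 fell in Stat5a-/- against wt (19.8% and 16.3% of all tested genes), and 5 rose and 3 fell in Stat5b-/- (24.2% and 22.0% of all tested genes). The recombinase genes Rag1 and Rag2, named after their values were seen, went the other way from the sum. Rag1 had 64.7 ± 2.06 CPM in wt, 0.158 ± 0.0786 in Stat5a-/- and 0.667 ± 0.179 in Stat5b-/-, and Rag2 had 32.5 ± 4.43, 0.0767 ± 0.0709 and 0.677 ± 0.361, so the lines differed in these markers of B-cell precursors too. Markers of T cells (16 genes, none at 0) summed to 876 to 1190 in wt, 1540 to 1780 in Stat5a-/- and 1980 to 2800 in Stat5b-/-, and myeloid and erythroid markers to at most 15.5. Of the 16, 8 rose and 0 fell in Stat5a-/- against wt, and 15 rose and 0 fell in Stat5b-/-, with 0 lower also at an unadjusted p under 0.05 and with DESeq2. The T-cell sum, though not each gene in it, had the same order over the 3 lines as the means of Phf1, Phf19 and Ezh1 described below. The mean myeloid sum had this order too, at 5.78, 8.44 and 14.2 CPM in wt, Stat5a-/- and Stat5b-/-. The mean erythroid sum did not, at 12.2, 13.5 and 3.02 CPM. The part of these sums in those results was not tested. In bulk RNA, fewer cells of a type and less RNA per cell cannot be told apart.

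Compared with wt, 3 of 10 members rose in Stat5b-/- (Phf1, Phf19 and Ezh1) and 0 fell at an adjusted p under 0.05 in edgeR. Over all tested genes, 24.2% were called higher and 22.0% lower in this comparison, so the 30% of members called higher were near the background share. At an unadjusted p under 0.05 there was 1 member lower, Rbbp7, and DESeq2 called 0 lower. The Stat5a-/- line had 2 members higher than wt (Phf1 and Ezh1) and 1 lower (Mtf2), where 19.8% of all tested genes were called higher and 16.3% lower. Between the knockout lines, Phf1 and Mtf2 were higher in Stat5b-/- than in Stat5a-/- and 0 members were lower, where 16.4% of all tested genes were called higher and 17.5% lower. There, 0 members were lower at an unadjusted p under 0.05 or with DESeq2. The median log2 fold change over the 10 members was -0.04 in Stat5b-/- against wt, -0.01 in Stat5a-/- against wt and 0.07 between the knockout lines, beside 0.02, 0.01 and 0.02 over all tested genes. The comparisons with wt share the wt libraries. None of Ezh2, Suz12, Eed, Rbbp4, Rbbp7 and Jarid2 passed the test in any comparison.

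**Figure D1:**
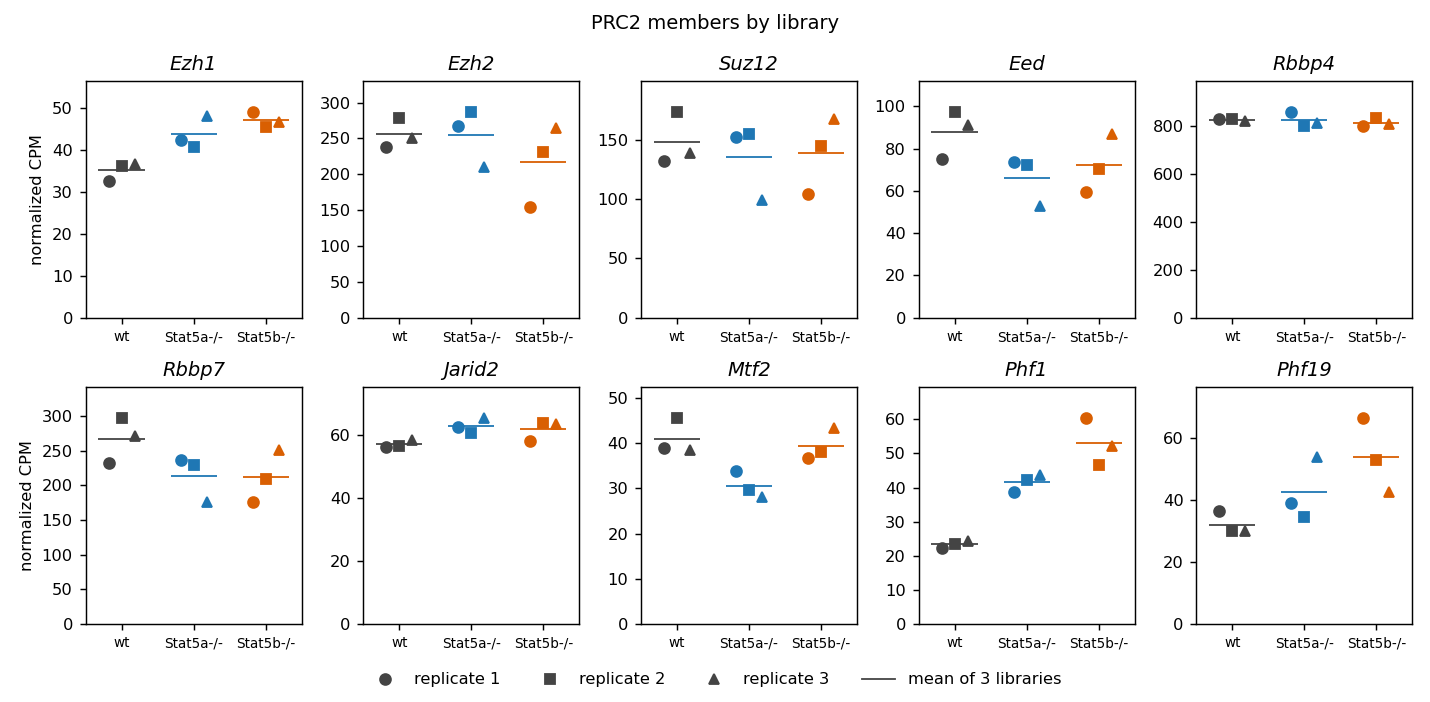
Normalized CPM (y axis, from 0) of each PRC2 member in the 3 libraries of each line (x axis). Symbols mark the replicate number and bars the mean of 3 libraries. Phf1 and Ezh1 in both knockout lines lay above every wt library, while the libraries of the lines overlapped for Ezh2 and Suz12.

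Per exon length, levels spanned a wide range in wt cells. In TPM, which are counts per exon length scaled to a common total, Rbbp4 stood at 280.3 ± 4.34 and Rbbp7 at 272.6 ± 33.3 (SD, n = 3), and the ranges of their libraries overlapped. Both proteins also serve in other chromatin complexes. Ezh2 followed at 113.9 ± 8.44 TPM, Suz12 at 88.8 ± 12.3 and Eed at 68.1 ± 9.10, each separate from the next in the order. The accessory genes were lower, with Phf1 at 28.6 ± 1.82 TPM, Mtf2 at 21.4 ± 1.78, Phf19 at 18.9 ± 2.08 and Jarid2 at 17.4 ± 0.691. Mtf2 overlapped with Phf19, and Phf19 with Jarid2. Ezh1 was the lowest member at 14.0 ± 1.05 TPM. In Stat5b-/- the order of levels changed at Phf19, which at 32.2 ± 6.46 TPM stood above Mtf2 at 20.8 ± 2.24 without overlap, and at Phf1, which at 65.7 ± 7.05 TPM stood above Eed at 57.0 ± 11.9 with overlapping ranges. In Stat5a-/- Mtf2 became the lowest member at 13.7 ± 1.58 TPM, in a range that overlapped with that of Ezh1 at 15.0 ± 1.68. TPM were scaled without TMM, so lines can differ otherwise in TPM than in the normalized CPM that were tested. In TPM, Rbbp4 ran from 225 to 256.6 in Stat5a-/- and from 276.5 to 285 in wt. Rbbp7 ran from 157 to 213.5 and from 235.2 to 299, whereas in normalized CPM these libraries overlapped for both genes.

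Of the catalytic subunits, only Ezh1 passed the test against wt, which does not show a difference between the subunits. Ezh1 (ENSMUSG00000006920.14, chr11:101191115-101226463 of GRCm38, minus strand) had 32.6, 35.96 and 36.7 normalized CPM in the wt libraries. It had 42.4, 40.5 and 47.9 CPM in the Stat5a-/- libraries and 49.0, 45.4 and 46.5 in the Stat5b-/- libraries. In normalized CPM all 6 knockout libraries lay above all 3 wt libraries, and the knockout lines overlapped with each other. In TPM the Stat5a-/- libraries, from 13.4 to 16.8, overlapped with those of wt, from 12.9 to 15.0. The Stat5b-/- libraries, from 18.6 to 19.3 TPM, lay above both. Against wt, Ezh1 rose by a log2 fold change of 0.42 in Stat5b-/- (SE 0.104, adjusted p = 0.00504) and 0.31 in Stat5a-/- (SE 0.105, adjusted p = 0.0327). The difference between the knockout lines was 0.11 with a 95% interval from -0.12 to 0.33. The call in Stat5b-/- held in 17 of 17 alternative settings, that in Stat5a-/- in 10 of 17. The latter was lost when wt replicate 1, 2 or 3 or Stat5a-/- replicate 1 or 3 was left out, where the log2 fold change lay between 0.21 and 0.34 and the adjusted p between 0.0663 and 0.177. It was also lost with no filter on low counts (0.29, adjusted p = 0.134) and with the replicate number as a block (0.31, adjusted p = 0.0732).

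The bases upstream of Ezh1 are given here because it was the catalytic gene that rose. They are RefSeq promoter sequence of GRCm38.p6 from chr11:101226464-101226713 (minus strand, written 5′ to 3′, up to the base before the gene model).
Ezh1: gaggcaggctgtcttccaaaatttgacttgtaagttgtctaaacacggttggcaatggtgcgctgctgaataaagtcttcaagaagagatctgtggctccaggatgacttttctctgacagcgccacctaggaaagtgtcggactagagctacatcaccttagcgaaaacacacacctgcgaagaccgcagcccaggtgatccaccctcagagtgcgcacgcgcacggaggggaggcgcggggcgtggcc
In all 300 bases of its promoter window (250 before and 50 after the start), 23 CpG dinucleotides were counted and the GC content was 59.3%. The window held no match to TTCNNNGAA, the core of the GAS element that STAT proteins bind, searched on both strands. It shared this with the other members: the GAS word was found in 0 of 10 member windows and in 8.3% of all 32851 mouse windows.

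Ezh2 (ENSMUSG00000029687.16, chr6:47530139-47595341, minus strand), which encodes the main methyltransferase of dividing cells, had 238.6, 279 and 251.3 normalized CPM in wt. The Stat5a-/- libraries had 267.5, 287.1 and 210.1 CPM and the Stat5b-/- libraries 154.3, 231 and 265.1. Stat5b-/- replicate 1 and Stat5a-/- replicate 3 were the lowest libraries, and the 3 lines overlapped. The log2 fold change against wt was -0.24 in Stat5b-/- (95% interval -0.62 to 0.13, adjusted p = 0.277) and -0.01 in Stat5a-/- (-0.38 to 0.37, adjusted p = 0.98). These intervals leave room for a fall to 0.652-fold in Stat5b-/-. Over the alternative settings the value in Stat5b-/- against wt ran from -0.41 to -0.07 and passed in 0 of 17. Per length, Ezh2 made up 89.1% ± 0.606 of the summed Ezh1 and Ezh2 transcripts in wt, 86.4% ± 3.03 in Stat5a-/- and 83.1% ± 4.59 in Stat5b-/- (SD, n = 3). The Stat5b-/- libraries lay below all wt libraries, from 77.8% to 86.4% against 88.4% to 89.6%. The exact two-sided permutation p was 0.10, the smallest that 3 against 3 libraries can give, and 0.22 after adjustment over 18 such comparisons of shares. The Stat5a-/- libraries overlapped with wt in this share (permutation p = 0.2, adjusted p = 0.3).

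The start of Ezh2 carries a word of the E2F family, the factors that switch on genes for DNA replication in dividing cells. The words TTTCCCGC, TTTCGCGC, TTTGCCGC and TTTGGCGC were searched on both strands. A match stood in 3 of 10 member windows (Ezh2, Suz12 and Phf19) and in 2.26% of all mouse windows of the same length. Each of these 3 windows held 1 match, so that no matches overlapped. The matches of Ezh2 and Suz12 are shown with 8 bases on each side and the word in capitals, at chr6:47595012-47595035 (minus strand) and chr11:79992879-79992902 (plus strand).
Ezh2: ttgctgcgTTTGGCGCtcggtccg
Suz12: cccctcatTTTCCCGCgaattcag
Positions are counted from the RefSeq start of the window, which for Ezh2 is base 47595030 of chromosome 6, inside the gene model of the count tables. From there the Ezh2 word began at base 4 and the Suz12 word at position -219. A match is a description of the letters and not of binding, which was not measured.

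Among the core partners, Suz12 (ENSMUSG00000017548.15, chr11:79993106-80034123, plus strand), the scaffold of the complex, had 132.3, 173.5 and 138.7 normalized CPM in wt. It had 152.4, 154.9 and 99.3 CPM in Stat5a-/- and 104.4, 144.4 and 167.3 in Stat5b-/-. Again Stat5a-/- replicate 3 and Stat5b-/- replicate 1 were the lowest libraries. The lines overlapped, with a log2 fold change against wt of -0.10 in Stat5b-/- (95% interval -0.51 to 0.32) and -0.13 in Stat5a-/- (-0.54 to 0.29). Eed (ENSMUSG00000030619.9, chr7:89954654-89980983, minus strand), the subunit that reads the mark, had 74.9, 97.4 and 91.1 CPM in wt, 73.4, 72.0 and 52.8 in Stat5a-/- and 59.6, 70.1 and 87.0 in Stat5b-/-. Every Stat5a-/- library lay below every wt library, but the difference missed the threshold (log2 fold change -0.41, SE 0.161, adjusted p = 0.0643). It passed in 9 of 17 alternative settings, among them DESeq2 (adjusted p = 0.0398). It also passed without wt replicate 1 (-0.51), Stat5a-/- replicate 1 (-0.52), Stat5b-/- replicate 1 (-0.43) or Stat5b-/- replicate 3 (-0.41). In Stat5b-/- against wt, Eed had a log2 fold change of -0.28 (adjusted p = 0.169), which passed when Stat5b-/- replicate 3 was left out (-0.43, adjusted p = 0.0386).

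Of the histone-binding subunits, Rbbp4 varied less between libraries than Rbbp7. Rbbp4 (ENSMUSG00000057236.10, chr4:129307100-129335370, minus strand) had 829.7, 827 and 820.4 normalized CPM in wt, 858.5, 799.4 and 810.3 in Stat5a-/- and 797.9, 832.4 and 807.6 in Stat5b-/-. Its 95% interval against wt ran from -0.21 to 0.17 on the log2 scale in Stat5b-/- and from -0.20 to 0.18 in Stat5a-/-. Of its exon bases, 18% overlap with Sync and Gm26722 on the other strand. Since strand was not used in counting, reads from this overlap cannot be told apart. TPM still divided by the full exon length, which limits the TPM of Rbbp4. For the other members the overlapping share was at most 6.93%. Rbbp7 (ENSMUSG00000031353.13, chrX:162760402-162779092, plus strand), its paralog, had 232.2, 297.6 and 271.6 CPM in wt, 237.6, 230.1 and 175.4 in Stat5a-/- and 175.9, 210.1 and 250.8 in Stat5b-/-. Rbbp7 missed the threshold in Stat5b-/- (log2 fold change -0.33, adjusted p = 0.0894) and in Stat5a-/- (-0.32, adjusted p = 0.122) against wt. In Stat5b-/- it passed when Stat5a-/- replicate 3 (-0.35, adjusted p = 0.0347) or Stat5b-/- replicate 3 (-0.47, adjusted p = 0.0219) was left out. The paralogs share sequence, and reads that fit both equally well are dropped by the counter at its default.

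The accessory subunits held the largest changes. Phf1 (ENSMUSG00000024193.7, chr17:26933127-26937890, plus strand), a Polycomb-like protein that binds methylated lysine 36 of histone H3, had 22.3, 23.3 and 24.4 normalized CPM in wt. It had 38.7, 42.1 and 43.7 CPM in Stat5a-/- and 60.4, 46.8 and 52.1 in Stat5b-/-. The 3 lines did not overlap, with wt lowest and Stat5b-/- highest. Phf1 rose 2.27-fold in Stat5b-/- (log2 fold change 1.18, SE 0.116, adjusted p = 2.93e-06) and 1.77-fold in Stat5a-/- (0.83, SE 0.117, adjusted p = 9.10e-05) against wt, and these calls held in 17 of 17 settings. Phf1 was the only member past a fold change of 2 in any comparison. It was also higher in Stat5b-/- than in Stat5a-/- (log2 fold change 0.36, SE 0.115, adjusted p = 0.0293). This difference between the knockout lines held in 11 of 17 settings and was lost without Stat5a-/- replicate 1 (0.31, adjusted p = 0.12), Stat5a-/- replicate 2 (0.36, adjusted p = 0.0808) or Stat5b-/- replicate 1 (0.25, adjusted p = 0.119). At nearly the same size it also missed the threshold with no filter on low counts (0.36, adjusted p = 0.0517), with only the 2 lines compared (0.36, adjusted p = 0.0542) and with the replicate number as a block (0.35, adjusted p = 0.067).

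Phf19 (ENSMUSG00000026873.9, chr2:34893757-34914026, minus strand), a second Polycomb-like subunit, had 36.4, 29.9 and 30.0 normalized CPM in wt, 39.0, 34.5 and 53.9 in Stat5a-/- and 66.5, 53.1 and 42.5 in Stat5b-/-. All Stat5b-/- libraries lay above all wt libraries, whereas Stat5a-/- overlapped with both lines. Phf19 rose in Stat5b-/- against wt (log2 fold change 0.75, SE 0.183, adjusted p = 0.00447), a call that held in 17 of 17 settings with log2 fold changes from 0.55 to 0.90. The log2 fold change of Phf19 in Stat5a-/- against wt was 0.40 (adjusted p = 0.108). It lay between 0.17 and 0.52 over the alternative settings and passed in 1 of 17. The difference between the knockout lines, 0.35, did not pass (adjusted p = 0.158) except without Stat5a-/- replicate 3 (0.57, adjusted p = 0.0274), without Stat5b-/- replicate 3 (0.50, adjusted p = 0.0465) or with the correction for GC content given below.

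The upstream sequences of the accessory pair that rose are set side by side, from RefSeq windows of GRCm38.p6 at chr17:26932877-26933126 (plus strand) for Phf1 and chr2:34914027-34914226 (minus strand) for Phf19, with an E2F word in capitals.
Phf1: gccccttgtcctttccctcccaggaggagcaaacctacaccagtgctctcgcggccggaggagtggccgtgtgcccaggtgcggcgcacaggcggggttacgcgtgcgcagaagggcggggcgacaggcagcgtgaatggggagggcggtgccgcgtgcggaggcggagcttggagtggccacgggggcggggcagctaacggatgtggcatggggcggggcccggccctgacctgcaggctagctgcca
Phf19: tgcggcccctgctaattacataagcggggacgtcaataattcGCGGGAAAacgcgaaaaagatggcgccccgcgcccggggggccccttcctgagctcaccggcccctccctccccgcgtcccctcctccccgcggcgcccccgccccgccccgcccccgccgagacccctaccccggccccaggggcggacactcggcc
The capitals in Phf19 are TTTCCCGC read on the other strand, at position -208 from the RefSeq start, base 34913976 of chromosome 2, which lies inside the gene model and after the end of the printed stretch. Phf1 held no E2F word and neither of the pair held a GAS word, which says only that these letters are not in these windows. Both windows were rich in GC, at 68.7% with 24 CpG dinucleotides in Phf1 and 74.3% with 38 in Phf19.

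Mtf2 (ENSMUSG00000029267.17, chr5:108065674-108109004, plus strand), the third Polycomb-like subunit, took the opposite direction in 1 line. It had 39.0, 45.6 and 38.5 normalized CPM in wt, 33.8, 29.5 and 28.0 in Stat5a-/- and 36.7, 38.0 and 43.4 in Stat5b-/-. The Stat5a-/- libraries lay below all others, and the wt and Stat5b-/- libraries overlapped. Mtf2 fell by 0.43 on the log2 scale in Stat5a-/- against wt (SE 0.119, adjusted p = 0.013), a call that was lost without wt replicate 2 (-0.35, adjusted p = 0.0659). It was higher in Stat5b-/- than in Stat5a-/- (log2 fold change 0.37, adjusted p = 0.0318), which was lost without Stat5a-/- replicate 2 (0.34, adjusted p = 0.0972) or 3 (0.32, adjusted p = 0.0859), without Stat5b-/- replicate 2 (0.39, adjusted p = 0.0546) or 3 (0.29, adjusted p = 0.103), with the replicate number as a block (0.37, adjusted p = 0.0715), and with the GC correction alone (0.19, adjusted p = 0.137) or with the block (0.19, adjusted p = 0.177). Jarid2 (ENSMUSG00000038518.15, chr13:44729474-44921643, plus strand), which helps to recruit the complex, had 56.2 to 58.2 CPM in wt, 60.6 to 65.3 in Stat5a-/- and 57.9 to 63.8 in Stat5b-/-. Neither difference from wt passed the test, with a log2 fold change of 0.12 in Stat5b-/- (95% interval -0.08 to 0.31) and 0.14 in Stat5a-/- (-0.06 to 0.34).

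**Figure D2:**
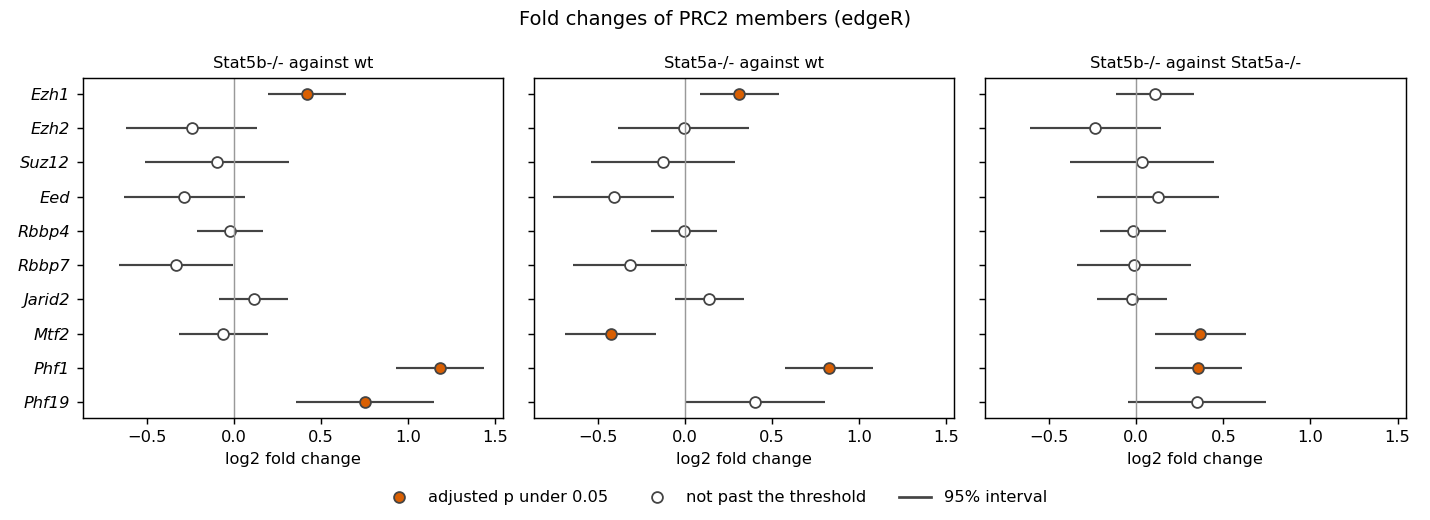
Log2 fold change (x axis) of each member (y axis) in the 3 comparisons, with 95% intervals from edgeR on 3 libraries a line. Filled points are past an adjusted p of 0.05, with Phf1 at 1.18 in Stat5b-/- against wt the farthest from 0.

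The shares of the accessory transcripts were compared next by exact permutation tests, in which 3 against 3 libraries cannot pass a threshold of 0.05. Per exon length, Phf1 made up 33.1% ± 1.72 of the summed Jarid2, Mtf2, Phf1 and Phf19 transcripts in wt, 45.8% ± 2.47 in Stat5a-/- and 47.6% ± 2.47 in Stat5b-/- (SD, n = 3). Mtf2 made up 24.8% ± 2.16 in wt, 14.4% ± 2.15 in Stat5a-/- and 15.2% ± 2.29 in Stat5b-/-. In both shares the libraries of each knockout line lay apart from those of wt and overlapped with each other, although in normalized CPM Mtf2 fell in 1 of them only. Jarid2 had 20.2% ± 0.570, 17.3% ± 0.615 and 14.0% ± 1.88 in wt, Stat5a-/- and Stat5b-/-, with no overlap between lines. Phf19 stayed between 19.2% and 26.5% in all 9 libraries. The exact permutation p was 0.10 for each pair of lines that did not overlap, the smallest possible, and 0.22 after adjustment over the 18 comparisons, so no difference in shares passed the threshold. Shares within 1 sum are not independent, since a rise of Phf1 lowers the others.

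**Figure D3:**
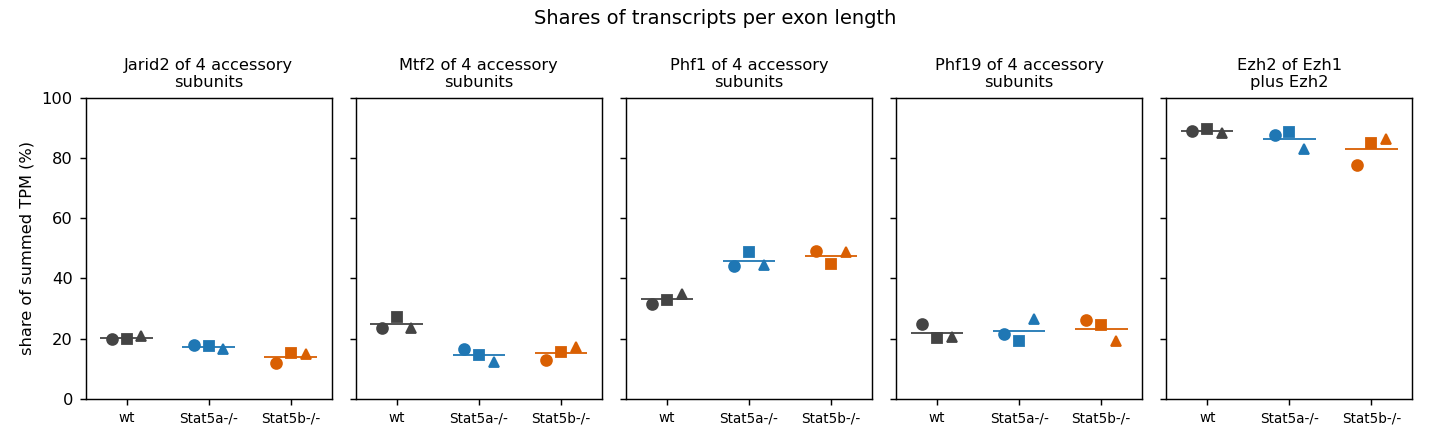
Share of summed TPM (y axis, in percent) of each accessory gene among the 4 accessory genes, and of Ezh2 among Ezh1 plus Ezh2, by line (x axis). Points are libraries and bars the means of 3. Phf1 lay above wt in both knockout lines, with means of 45.8% and 47.6% against 33.1%.

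The genes around the members put the values of Phf1 in context. In Stat5a-/- against wt, genes of chromosome 17 (676 tested) had a median log2 fold change of 0.53, and 56.1% of them were called higher and 3.55% lower. Within 1 Mb of Phf1 the median over 45 tested genes was 0.66, with 31 called higher and 0 lower, beside 0.83 for Phf1 itself. The rise of Phf1 in Stat5a-/- therefore stood among neighbours that were higher as well. In Stat5b-/- against wt the same neighbours had a median of 0.02 (13 higher and 10 lower) and Phf1 1.18. Between the knockout lines the neighbours had a median of -0.64, with 28 of 45 lower and 1 higher, whereas Phf1 was 0.36 higher in Stat5b-/-. Whether the higher transcript levels over chromosome 17 had a part in the rise of Phf1 in Stat5a-/- was not tested, and DNA was not measured.

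Ezh1 lies 305.9 kb from Stat5a and 340.4 kb from Stat5b on chromosome 11, so the targeted loci are near it. The 57 tested genes within 1 Mb of Ezh1 had a median log2 fold change of -0.15 in Stat5b-/- (11 higher and 20 lower) and -0.16 in Stat5a-/- (8 higher and 16 lower) against wt, while Ezh1 rose in both lines. Phf19 also rose in Stat5b-/- among neighbours with a median of -0.16 (19 genes, 3 higher and 7 lower). Ezh2 had -0.24 in Stat5b-/- on a chromosome whose 693 tested genes had a median of 0.22. The 20 tested genes within 1 Mb of Ezh2 had -0.21, close to its own value.

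**Figure D4:**
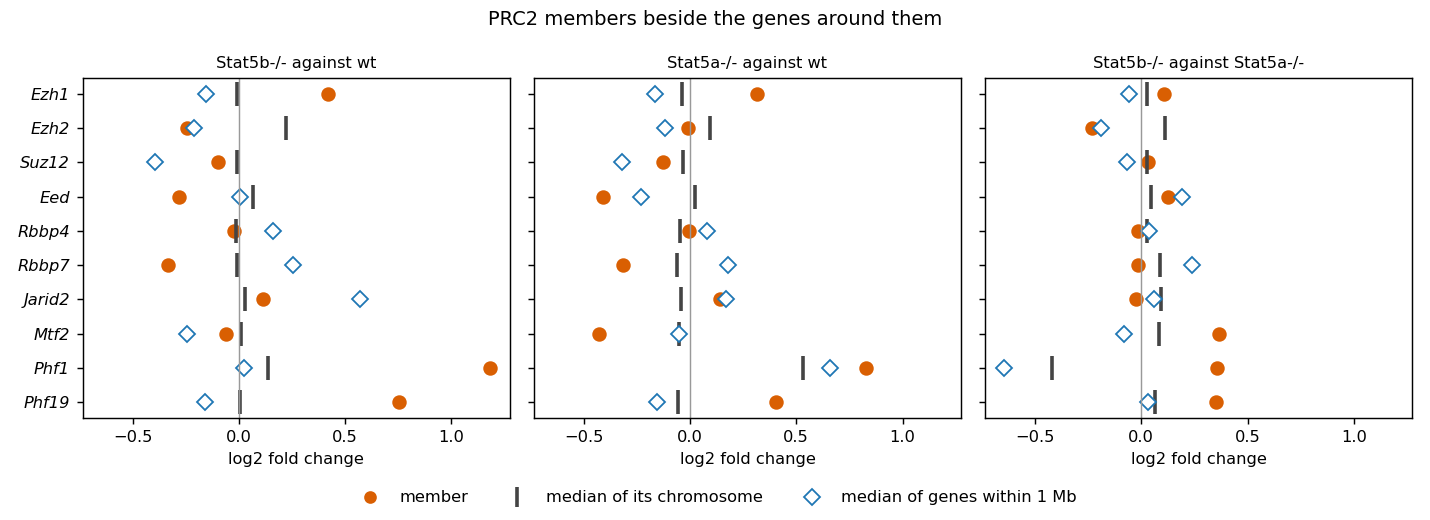
Log2 fold change (x axis) of each member (dots), the median of the tested genes on its chromosome (bars) and the median of tested genes within 1 Mb (diamonds), in the 3 comparisons. In Stat5a-/- against wt the diamond of Phf1 stands at 0.66 beside 0.83 for the gene, while in Stat5b-/- against wt it stands at 0.02 beside 1.18.

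Libraries of 1 line differed from each other with the GC content of the genes, and most members followed this trend. Across 13824 genes, the correlation of a library's deviation from its line mean with GC content ran from -0.482 in wt replicate 2 to 0.525 in Stat5a-/- replicate 3. Stat5b-/- replicate 1 had 0.319 and replicate 3 -0.449. Suz12 (41.6% GC over its exons) deviated by -0.42 on the log2 scale in Stat5a-/- replicate 3 and by 0.30 in Stat5b-/- replicate 3. Phf19 (53.9% GC) deviated the other way, by 0.37 and -0.32. The low values of Ezh2, Suz12, Eed and Rbbp7 in Stat5a-/- replicate 3 and Stat5b-/- replicate 1 were thus in libraries with a positive correlation, as was wt replicate 1 at 0.467.

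With an offset for GC content in the fit, added after seeing the data, the SD within lines on the log2 scale went from 0.315 to 0.18 for Suz12, from 0.279 to 0.192 for Ezh2 and from 0.228 to 0.123 for Rbbp7. It went up from 0.125 to 0.182 for Phf1 and from 0.037 to 0.097 for Rbbp4. The offset was fitted to each library's deviation from the mean of all libraries. It therefore also removes differences between lines that follow GC content. The rises of Phf1 (log2 fold change 1.08), Phf19 (0.71) and Ezh1 (0.41) in Stat5b-/- against wt held, and Rbbp7 became a call as lower (-0.37, adjusted p = 0.00375). This gave 3 members higher and 1 lower, where 26.3% of all tested genes were then called higher and 28.5% lower. Against wt in Stat5a-/-, Phf1 (0.61) and Ezh1 (0.26) were higher, and Mtf2 (-0.33), Eed (-0.40, adjusted p = 0.0197) and Rbbp7 (-0.27, adjusted p = 0.0289) were lower, beside 21.9% of all genes higher and 22.5% lower. Between the knockout lines, Phf1 (0.47) and Phf19 (0.42, adjusted p = 0.0205) were higher and Ezh2 (-0.33, adjusted p = 0.0402) was lower in Stat5b-/-, beside 21.0% of all genes higher and 21.9% lower. With the same offset, the 45 tested neighbours of Phf1 had a median of 0.52 in Stat5a-/- against wt, beside 0.61 for Phf1, and of -0.03 in Stat5b-/- against wt, beside 1.08.

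**Figure D5:**
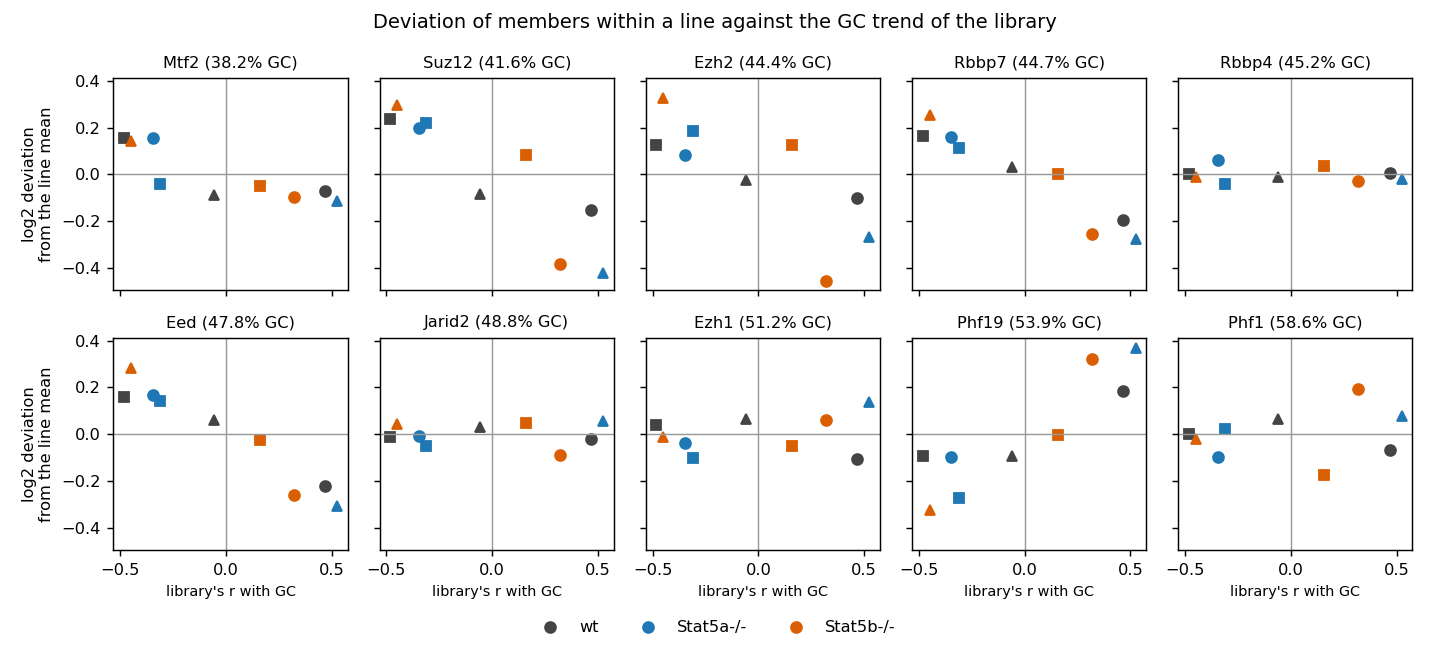
Deviation of each member from the mean of its line (y axis, log2) against the correlation of the same library's deviations with GC content over all tested genes (x axis), with members ordered by the GC content of their exons. Symbols mark replicate numbers 1 (circle), 2 (square) and 3 (triangle). Suz12 runs from 0.30 down to -0.42 and Phf19 from -0.32 up to 0.37.

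Further genes of Polycomb biology were described by lists, whose counts can be read against the shares of all tested genes given above. Of 4 tested further PRC2 partners, 2 fell in Stat5b-/- against wt. Epop, which lowers PRC2 activity at chromatin by linking it to elongin, went from 42.9 ± 8.03 normalized CPM in wt to 12.5 ± 3.03 in Stat5b-/- (log2 fold change -1.77, adjusted p = 2.37e-05) and stood at 41.4 ± 11.8 in Stat5a-/-, so that it was also lower in Stat5b-/- than in Stat5a-/- (-1.72, adjusted p = 6.07e-05). Lcorl, of the PALI family, fell in Stat5a-/- (-0.59, adjusted p = 0.00749) and in Stat5b-/- (-0.43, adjusted p = 0.0301).

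The enzymes that remove the PRC2 mark moved in opposite directions. Kdm6a, the X-linked demethylase, rose from 70.7 ± 5.23 normalized CPM in wt to 102 ± 2.06 in Stat5a-/- (log2 fold change 0.53, adjusted p = 6.95e-04) and 104 ± 6.88 in Stat5b-/- (0.56, adjusted p = 3.41e-04). Kdm6b, the inducible demethylase, went from 134 ± 22.0 CPM in wt down to 70.1 ± 10.7 in Stat5a-/- (-0.93, adjusted p = 0.00145) and 77.9 ± 21.3 in Stat5b-/- (-0.78, adjusted p = 0.00384).

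PRC1, the second Polycomb complex, which adds ubiquitin to histone H2A, had 25 tested genes. In Stat5b-/- against wt 9 rose and 8 fell, in Stat5a-/- against wt 6 rose and 7 fell, and between the knockout lines 3 were higher and 6 lower in Stat5b-/-. The largest changes in Stat5b-/- were falls of Bcorl1 (log2 fold change -1.77) and Pcgf6 (-1.16), and in Stat5a-/- a fall of E2f6 (-1.41) and a rise of Pcgf5 (1.19). These code for subunits of variant PRC1. Between the knockout lines Scmh1 was higher (1.12) and Bcorl1 lower (-1.16) in Stat5b-/-. The H2A deubiquitinase list, which opposes PRC1, had 2 of 9 genes higher and 1 lower in Stat5b-/- against wt, led by Ogt (0.60, adjusted p = 0.0049). In Stat5a-/- against wt 0 of 9 passed in either direction, also at an unadjusted p under 0.05 and with DESeq2, and Mbd5 had the lowest adjusted p.

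The list of writers of active marks held trithorax and lysine 36 methyltransferases, which oppose Polycomb silencing. It also held non-catalytic subunits of their complexes, namely Men1, Wdr5, Rbbp5, Ash2l and Dpy30. Of its 16 genes, 6 were higher and 1 lower (Dpy30) in Stat5b-/- against wt. In Stat5a-/- against wt 3 were higher and 1 lower (Ash2l), and between the knockout lines 6 were higher and 2 lower (Men1 and Dpy30). The median log2 fold change of the list was 0.15, 0.14 and 0.18. Kmt2c rose in Stat5b-/- (0.73, adjusted p = 1.37e-04), and Men1, which codes for menin, rose in Stat5a-/- (0.94, adjusted p = 5.88e-05). Of 17 genes for complexes that share RBBP4 and RBBP7, 4 rose and 3 fell in Stat5b-/- against wt and 4 rose and 4 fell in Stat5a-/- against wt. Chd3, a remodeller of the NuRD complex, had 221 ± 16.3 normalized CPM in wt, 116 ± 7.16 in Stat5a-/- and 60.5 ± 8.61 in Stat5b-/-, with log2 fold changes against wt of -0.93 and -1.87. In Stat5b-/- against Stat5a-/- 2 of the 17 were higher and 3 lower, with Mta3, another NuRD gene, higher (1.37) and Chd3 lower (-0.94, adjusted p = 4.64e-05).

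Genes that PRC2 is known to silence were mostly too low to test. Of 54 listed genes, chiefly of the Hox clusters, 8 passed the filter on low counts, and a gene high in only 1 line passes it, so their counts are given as a description. Against wt, in Stat5a-/- 7 were lower and 0 higher (also 0 at an unadjusted p under 0.05 and with DESeq2), and in Stat5b-/- against wt 4 were lower and 1 higher. Cdkn2a, the cell cycle inhibitor locus, had 165 ± 12.7 normalized CPM in wt, 13.8 ± 1.10 in Stat5a-/- and 8.52 ± 0.318 in Stat5b-/-. Hoxb8 had 148 ± 8.26 CPM in wt, 2.85 ± 0.560 in Stat5a-/- and 12.4 ± 1.81 in Stat5b-/-. These 2 genes were high in wt only, which did not hold for all 8. Between the knockout lines 6 were higher and 2 lower in Stat5b-/-, among them Hoxb7 with 1.60 ± 0.539 CPM in wt, 0.349 ± 0.0644 in Stat5a-/- and 1.26 ± 0.382 in Stat5b-/-. Lhx2 was the 1 gene higher in Stat5b-/- than in wt, with 2.64 ± 0.239 CPM in wt, 0.107 ± 0.0946 in Stat5a-/- and 30.8 ± 4.43 in Stat5b-/-. Histone marks were not measured in these libraries.

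Genes of proliferation were counted beside the catalytic subunits, since Ezh2 is known to be high in dividing cells. Of 20, 5 rose and 2 fell in Stat5b-/- against wt, 4 rose and 2 fell in Stat5a-/- against wt, and 2 were higher and 0 lower between the knockout lines, where 1 was lower at an unadjusted p under 0.05 and 1 with DESeq2. E2f2, which codes for a factor of the E2F family, rose from 109 ± 13.5 normalized CPM in wt to 236 ± 40.4 in Stat5a-/- (log2 fold change 1.11, adjusted p = 1.38e-04) and 293 ± 61.6 in Stat5b-/- (1.42, adjusted p = 1.33e-05). The other E2F genes of this list, named after their values were seen, did not rise. E2f3 fell in Stat5a-/- (-0.43, adjusted p = 0.00318) and in Stat5b-/- (-0.26, adjusted p = 0.0376), and E2f1 had 0.01 and -0.12, neither past the threshold. Tyms, a nucleotide synthesis gene, rose in Stat5b-/- against wt (log2 fold change 1.17, adjusted p = 3.76e-06). Their median was 0.08, 0.00 and 0.12 in the 3 comparisons.

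Over the 9 libraries, the genes whose log2 normalized CPM most resembled Ezh2 were Haus1 (Pearson's r 0.989), Oxct1 (0.973), Cip2a (0.972), Mterf4 (0.971) and Hsp90b1 (0.969). For Ezh1 they were Rasal3 (0.972), Dop1b (0.969), Itpripl2, Dpm1 and Atxn1 (each 0.965). The 9 points are technical replicates of 3 lines and share the GC trend of their library. The genes like Ezh2 had 37.8% to 47.9% GC, near the 44.4% of Ezh2, and those like Ezh1 44.4% to 57.4%, around its 51.2%.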

How the data were processed

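RNA-seq counts of 9 libraries were analysed. Per the study's methods and the labels, the authors prepared mRNA libraries (SENSE kit, 50 bp single-end reads), trimmed reads with Trimmomatic, mapped them with STAR to GENCODE M13 (GRCm38) and deposited raw featureCounts 1.5.1 counts for 50686 genes, without use of strand. Symbols from GENCODE M21 named 50376 of them. Samples were grouped by the genotype in titles and labels, with which 1 description field conflicts by calling the knockout lines wild-type.

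After TMM scaling, differences were tested by the quasi-likelihood method of edgeR 4.0.16 (R 4.3.3), with all 9 libraries in 1 fit, the filterByExpr filter and Benjamini-Hochberg adjustment over 13852 genes. Dividing the absolute log2 fold change by the root of F gave the SE. TPM used union exon lengths. Shares were compared with exact permutation tests. Steps were tested on simulated data.

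Alternatives were DESeq2 1.42.0, RLE scaling, no filter or a mean of 10 counts, only the 2 lines compared, the replicate number as a block, each library left out and, added after seeing the data, a GC offset (loess span 0.5) alone and with the block. Named genes were the members, Stat5a and Stat5b, from each list except the marker lists, in each comparison, up to 3 genes past a fold change of 2 (otherwise the lowest adjusted p), and the 5 genes most like Ezh2 and Ezh1. The members and lists were chosen with earlier results of these data known. Human samples were not analysed here.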

Additional observations from a re-analysis of the deposited data

How the results depend on the processing

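No called value changed sign in any alternative. For the 8 called of 30 member results, 115 of 136 values under the alternatives kept the call and 21 lost it, and for the uncalled results 24 of 374 gained one. In Stat5b-/- against wt, the count of members lower went from 0 to 1 with no filter, with the GC offset and with the GC offset plus replicate block, and ranged from 0 to 2 over left-out libraries. In Stat5a-/- against wt, members higher went from 2 to 1 under the replicate block (1 to 2 over left-out libraries), and members lower from 1 to 2 with DESeq2, with only the 2 lines compared or with the GC offset plus replicate block, to 3 with no filter or the GC offset, and 0 to 2 over left-out libraries. Between the knockout lines, members higher went from 2 to 1 with no filter or only the 2 lines compared, to 0 under the replicate block and 0 to 2 over left-out libraries, and members lower from 0 to 1 with the GC offset, with or without the replicate block. The causes were not tested. Counts over all tested genes stayed within 1.5 times the main count in each alternative. The share of Ezh2 in wt was 87.9% without division by length, beside 89.1%. Libraries with the same number did not deviate together (mean correlation -0.088 over 9 pairs, 0.044 over 18 others), so no pairing by number was seen in these deviations. The deviations also carry the GC trend of each library, and a shared preparation was not tested. With 1 line a genotype and 3 technical replicates, no value speaks for other lines.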
